A study of Mus musculus with 49 samples.

Results

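Leukaemia that began in a short-term haematopoietic stem cell was set against the normal cell it came from. A haematopoietic stem cell makes all blood lineages, and the short-term stem cell (ST-HSC) does so for a limited period while it divides more often than the long-term cell. The MLL-AF9 (MA9) fusion joins the front of the histone methyltransferase MLL to AF9, a subunit of a transcription elongation complex, and is known for driving acute leukaemia with features of immature myeloid and monocytic cells. The comparison held 8 of the 49 samples of the series, 3 samples of the leukaemia (STHSC:MA9) and 5 of normal ST-HSC. Genes whose mean over these 8 samples reached 1 FPKM were taken, which gave 12720 of the 38253 genes in the deposited table. FPKM is the number of fragments per kilobase of transcript, scaled to the number of mapped fragments.

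Expression had been measured by RNA sequencing of amplified, unstranded cDNA. All mice were female C57BL/6J with the genotype label WT, aged 6 to 12 weeks, and all samples carry the tissue label Bone Marrow. Normal ST-HSC had been sorted as Lin- Sca-1+ c-Kit+ CD150+ CD34+ bone marrow cells. For the leukaemia, such cells had been transduced with a retrovirus that carries MA9 and GFP and transplanted without long culture into sublethally irradiated recipients, and the study's methods describe bulk leukaemia cells as GFP+ cells sorted from the spleen, which differs from the tissue label. Recipients were killed when ill, so the leukaemia cells could come from mice older than 6 to 12 weeks. The effects of transformation therefore cannot be told apart from those of transduction in culture, transplantation, the irradiated host, age, the organ and the sort. Cell number is a further such difference, since the study's methods give more sorted cells per leukaemia sample than per ST-HSC sample. The study also describes replicate experiments, and the sample titles do not say which sample came from which. The labels do not say whether the samples of a group came from separate mice, although the study states that each did, so a p-value measures only the spread between these samples.

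Between 16036 and 16715 genes were above 0 FPKM in the ST-HSC libraries and between 16053 and 16345 in the STHSC:MA9 libraries. Total read numbers are not part of the table. Relative depth, estimated from the steps between low FPKM values as a ratio to the median library, ranged from 0.92 to 1.31 in ST-HSC and from 0.97 to 1.47 in STHSC:MA9. Genes of the mitochondrial genome took 30.2%, 34.5%, 28.7%, 26.9% and 27.1% of the summed FPKM in ST-HSC 1 to 5 and 19.8%, 18.1% and 16.3% in STHSC:MA9 1 to 3. The difference was -11.4 percentage points (two-sided exact permutation test, p = 0.0357, with 56 splits giving none smaller, and 0.0612 adjusted over the 12 values of this kind). No pair of libraries was identical. In a bulk sample, fewer cells of a type and less RNA per cell cannot be told apart.

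The labelled cell type was checked with the transcripts of the sorting antigens. The summed FPKM of Kit, Ly6a (Sca-1), Slamf1 (CD150) and Cd34 was 248, 305, 269.9, 204 and 264 in ST-HSC 1 to 5 and 17.3, 23.9 and 15.6 in STHSC:MA9 1 to 3, so that all ST-HSC libraries held the defining markers at many times the level of the leukaemias. Markers of mature cells, which the lineage depletion should remove, were not even among the ST-HSC libraries. The summed FPKM of 20 late granulocyte genes was 84.5, 172, 1324, 44320.3 and 9299 in ST-HSC 1 to 5, against 31767, 21229 and 48943 in STHSC:MA9 1 to 3. ST-HSC 4 thus lay within the leukaemias, ST-HSC 5 came next and ST-HSC 1 and 2 held little. The erythroid sum was 1079, 7244, 809, 44336 and 7877 in ST-HSC 1 to 5 and 323, 170.2 and 172 in STHSC:MA9 1 to 3, again highest in ST-HSC 4. Of the lineage antigens, Ly6g, a granulocyte antigen bound by the Gr-1 antibody, was at 0, 0, 3.19, 231 and 63.3 FPKM in ST-HSC 1 to 5. Cd4 and Cd8a fell below the expression minimum. ST-HSC 4 and 5 therefore stand apart from ST-HSC 1 to 3, and the counts of list members called between STHSC:MA9 and ST-HSC are also given without them where they changed. Whether mature cells in these libraries lowered or raised a given change was not tested.

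**Figure D1:**
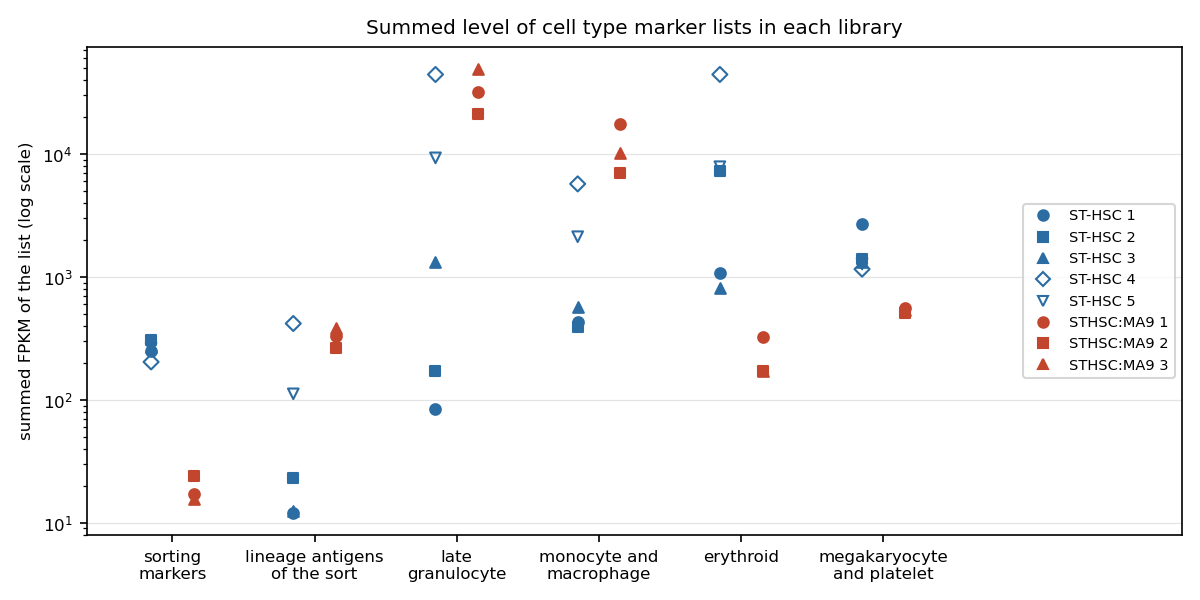
Summed FPKM (log axis) of 6 marker lists in each library, with ST-HSC 1 to 5 in blue, of which 4 and 5 are open symbols, and STHSC:MA9 1 to 3 in red. The sorting markers are at 204 to 305 in ST-HSC and 15.6 to 23.9 in STHSC:MA9, and ST-HSC 4 reaches 44320.3 for late granulocyte and 44336 for erythroid genes.

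The first question was which genes differ between the leukaemia and its cell of origin. Genes were called at an adjusted p (limma on log2(FPKM + 1), Benjamini-Hochberg over all 12720 genes) below 0.05 with a log2 change above 1 in either direction. Of the genes tested, 2985 (23.5%) were called, 1427 (11.2%) higher and 1558 (12.2%) lower in STHSC:MA9. The groups did not overlap in 5090 genes (40.0%). Without ST-HSC 4 and 5, 3196 of 12707 genes (25.2%) were called, 1588 higher and 1608 lower. The median log2 change over all genes tested was -0.06, and every list that follows can be read against that median and against the shares of 11.2% and 12.2%. The added 1 FPKM shrinks the log2 change of weakly expressed genes. The other 25533 genes of the table were under 1 FPKM and were not tested. The 33 gene lists held 763 different genes in 855 entries, of which 10 could not be matched to the table and 85 were under the minimum. Unless said otherwise a value after a gene name is its log2 change, and higher and lower mean past both thresholds.

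The largest rises came from 1 family on chromosome 16. The stefin A genes encode small cytoplasmic inhibitors of cysteine cathepsins, and in the mouse they lie side by side, here within 299 kb (NCBIM37, 36156897 to 36455478). BC100530, a member of the family, was at 2.32, 0.32, 0.72, 4.72 and 3.04 FPKM in ST-HSC 1 to 5 and at 1967, 2246 and 4258 FPKM in STHSC:MA9 1 to 3. Stfa1 was at 2.01, 0.65, 3.36, 11.9 and 5.57 FPKM in ST-HSC and 3662, 3797 and 4988 FPKM in STHSC:MA9, and Stfa3 at 0.69, 0, 0, 5.90 and 1.44 FPKM against 1569.9, 831 and 2979 FPKM. In all 3 genes the groups lay far apart, and ST-HSC 4 was the highest normal library. The log2 changes were 9.89 ± 0.47 (SE), adjusted p = 8.20e-07, for BC100530, 9.84 ± 0.55 (SE), adjusted p = 1.92e-06, for Stfa1, and 9.65 ± 0.64 (SE), adjusted p = 6.00e-06, for Stfa3. Stfa2 (9.28), Stfa2l1 (8.14) and the predicted member Gm5483 (8.82) rose on the same scale, so that all 6 tested stefin A genes were called. Stfa2l1 shows the weight of a single library most plainly, with 1.37, 0.67, 0.98, 65.2 and 4.98 FPKM in ST-HSC 1 to 5. The paralogues share sequence with other genes over 62.8% of 31-base windows in Stfa1, 50.3% in Stfa2l1, 44.9% in BC100530, 35.6% in Stfa2 and 0% in Stfa3, so the split of fragments among the first 4 is uncertain.

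The promoters of the stefin A genes are shown because the members rose together, and that of Hpgd because it was the largest rise outside the family among the genes named. Each is the 250 bases before the start of transcription in the RefSeq table (GRCm38.p6), found by exact match at 1 place in NCBIM37, at chr16:36276984-36277233 (+ strand) for Stfa1, chr16:36455479-36455728 (- strand) for Stfa3, chr16:36156647-36156896 (+ strand) for Stfa2l1 and chr8:58773099-58773348 (+ strand) for Hpgd. Capitals mark GAGGAA, a core of sites of the myeloid factor PU.1, and TGTGGT, a core of RUNX sites, each on either strand (TTCCTC and ACCACA).
Stfa1: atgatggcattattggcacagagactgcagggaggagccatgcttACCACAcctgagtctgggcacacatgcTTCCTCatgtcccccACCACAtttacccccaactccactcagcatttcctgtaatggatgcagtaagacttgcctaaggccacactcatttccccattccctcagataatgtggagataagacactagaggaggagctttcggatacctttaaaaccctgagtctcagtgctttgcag
Stfa3: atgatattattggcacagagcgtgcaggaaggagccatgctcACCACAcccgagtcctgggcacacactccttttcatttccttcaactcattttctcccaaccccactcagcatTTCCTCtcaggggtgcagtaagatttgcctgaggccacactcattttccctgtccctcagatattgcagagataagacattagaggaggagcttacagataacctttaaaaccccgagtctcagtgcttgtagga
Stfa2l1: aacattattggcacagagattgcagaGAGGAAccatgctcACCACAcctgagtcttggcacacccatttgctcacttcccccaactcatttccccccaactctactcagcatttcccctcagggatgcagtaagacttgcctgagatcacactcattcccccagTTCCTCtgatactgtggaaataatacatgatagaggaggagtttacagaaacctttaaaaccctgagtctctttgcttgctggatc
Hpgd: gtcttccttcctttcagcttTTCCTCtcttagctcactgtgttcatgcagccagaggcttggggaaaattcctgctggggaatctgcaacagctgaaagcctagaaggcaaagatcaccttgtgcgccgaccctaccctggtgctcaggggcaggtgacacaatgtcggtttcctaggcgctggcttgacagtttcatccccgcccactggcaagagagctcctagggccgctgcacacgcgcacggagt
The first 3 promoters were 80.3% to 83.5% identical, so they are not independent examples. All 4 stefin A promoters in the table (Stfa2 is the 4th) held both motifs, against 23.3% (GAGGAA) and 14.0% (TGTGGT) of all 32851 promoters of this length. AGATAA, a core of GATA sites, was in 2 of the 4 against 9.99% of all, and the C/EBP pattern TTGCNNAA in 1 of the 4 against 9.56%. GAGGAA was also in 6, and TGTGGT in 1, of 12 promoters of megakaryocyte and platelet genes that were lower in STHSC:MA9. The Hpgd promoter held GAGGAA once and no TGTGGT. A match describes the letters and not a bound site, and the Stfa1 stretch reaches 20 bases past the start of the gene in the GENCODE annotation.

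Hpgd encodes the enzyme that inactivates prostaglandins by oxidising their 15-hydroxyl group. It was at 1.84, 4.83, 0.90, 3.69 and 3.79 FPKM in ST-HSC 1 to 5 and 386, 1055 and 688 FPKM in STHSC:MA9 1 to 3, a log2 change of 7.46 ± 0.41 (SE), adjusted p = 1.87e-06. Penk, which encodes the opioid precursor proenkephalin, was at 0.21, 0, 0.23, 0.31 and 0.75 FPKM in ST-HSC and 82.98, 259 and 224 FPKM in STHSC:MA9 (7.06 ± 0.35 (SE), adjusted p = 1.17e-06). F10, the gene of coagulation factor X, was at 5.27, 7.27, 4.68, 11.2 and 8.12 FPKM in ST-HSC and 302, 265 and 261 FPKM in STHSC:MA9 (5.11 ± 0.24 (SE), adjusted p = 7.55e-07). In these 3 genes no library of one group came near the other group, and F10 was even within both. The other rises were less even. Chi3l3 (Ym1), a chitinase-like protein of myeloid cells, was at 9.18, 6.38, 36.6, 839 and 263 FPKM in ST-HSC and 12299, 1160.1 and 1692 FPKM in STHSC:MA9, and Fn1 (fibronectin) at 3.68, 1.58, 1.31, 32.03 and 12.1 and 1308, 104 and 65.95 FPKM. In both, STHSC:MA9 1 stood several-fold above the other leukaemias, and ST-HSC 4 and 5 above the other normal libraries. Chi3l3 did not pass without STHSC:MA9 1 (4.61, adjusted p = 0.0717). Apoc2, an activator of lipoprotein lipase, changed by 6.32 and Olfm4, a granule protein of some neutrophils, by 5.61.

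The genes with the largest falls had different known roles. Pf4, which encodes platelet factor 4, a chemokine of platelet granules, was at 1110.4, 437, 329.6, 209 and 249 FPKM in ST-HSC 1 to 5 and 0, 0.33 and 0.46 FPKM in STHSC:MA9 1 to 3 (-8.27 ± 0.47 (SE), adjusted p = 2.19e-06). ST-HSC 1 was the highest by a factor of over 2 and the leukaemias were at or next to 0. Car2 and Car1 encode carbonic anhydrases. Car2 was at 420.0, 353, 305, 368 and 298 FPKM in ST-HSC and 2.19, 1.74 and 1.11 FPKM in STHSC:MA9 (-7.04 ± 0.18 (SE), adjusted p = 5.07e-08), and Car1 changed by -5.77. Car2 was even across the normal libraries. Gpr56, an adhesion receptor of stem cells, was at 222, 232, 222, 229 and 245 FPKM in ST-HSC and 0.69, 3.70 and 1.89 FPKM in STHSC:MA9 (-6.34 ± 0.27 (SE), adjusted p = 4.35e-07). It was even in ST-HSC and next to 0 in the leukaemias. Nedd4, a ubiquitin ligase, changed by -6.09, F2r, the thrombin receptor PAR1, by -6.09, Serpina3g, a serine protease inhibitor, by -5.96 and Rab38, a small GTPase of melanosome and lysosome-related organelles, by -5.91. Igkc, the kappa light chain constant region made by B and plasma cells, was at 10439, 3897, 3598, 742 and 93.8 FPKM in ST-HSC 1 to 5 and 9.64, 4.61 and 1.60 FPKM in STHSC:MA9 (-8.21 ± 1.30 (SE), adjusted p = 0.00106). It was far higher in ST-HSC 1 to 3 than in 4 and 5, the libraries with most granulocyte RNA. The immunoglobulin J chain Igj divided the normal libraries in the same way, at 129, 42.9, 45.6, 7.28 and 0.44 FPKM in ST-HSC 1 to 5. Its fall (-4.14 ± 1.22 (SE), adjusted p = 0.023) was lost without ST-HSC 2, without ST-HSC 3 and without any 1 leukaemia (adjusted p 0.0504 to 0.068). The part of plasma cell RNA in these values was not tested.

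**Figure D2:**
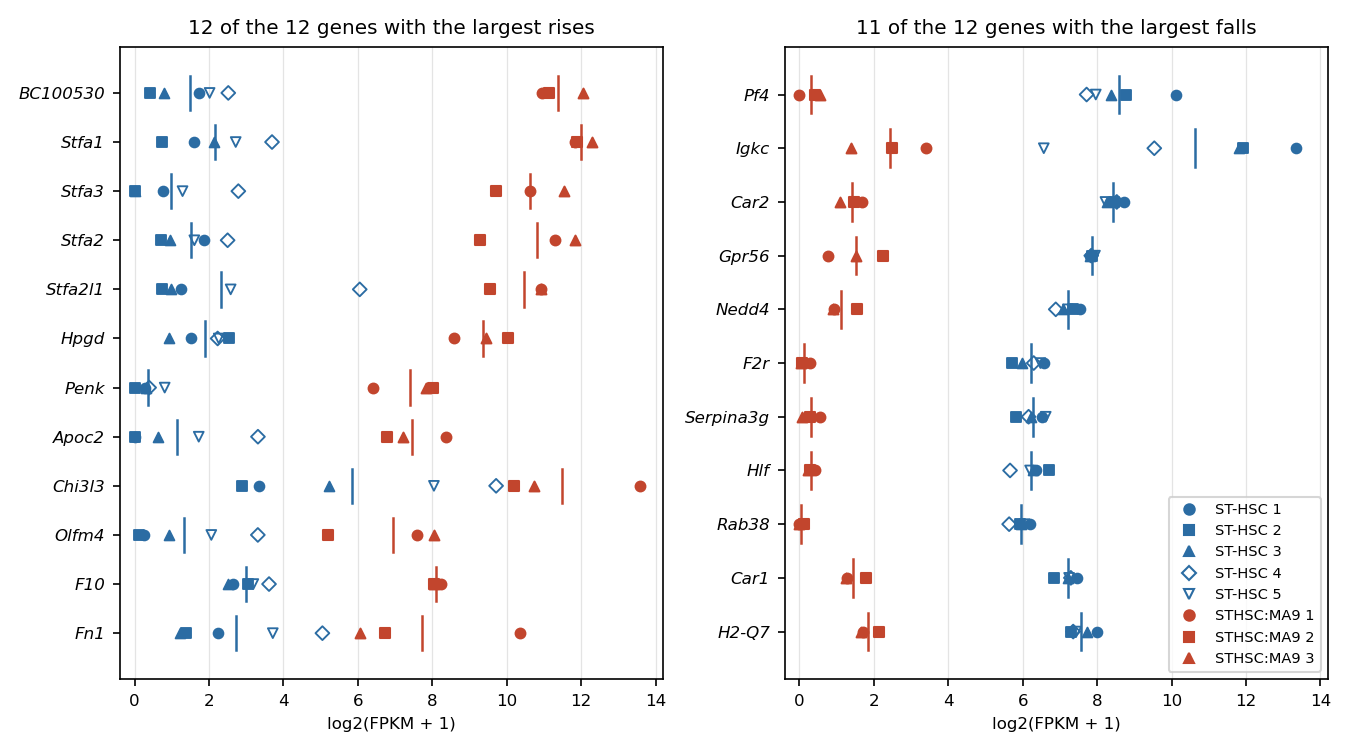
Level of the 12 genes with the largest rises (left) and of 11 of the 12 with the largest falls (right) as log2(FPKM + 1) in each library, with ST-HSC in blue (4 and 5 open) and STHSC:MA9 in red, and group means as vertical bars. No leukaemia overlaps a normal library in any of the 23 genes, which the naming rule required. ST-HSC 4 is the normal library nearest to the leukaemias for Stfa2l1, at 65.2 FPKM, and for Chi3l3, at 839 FPKM.

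Stem cell genes fell as a group. Of 40 genes on the list 36 were tested, 26 were lower and 0 higher, with a median log2 change of -2.61. Without ST-HSC 4 and 5, 27 were lower and 0 higher, and without STHSC:MA9 1, 1 was higher. Hlf, a transcription factor restricted to stem cells within blood, was at 80.7, 103, 75.98, 49.6 and 72.5 FPKM in ST-HSC and 0.34, 0.21 and 0.17 FPKM in STHSC:MA9 (-5.93 ± 0.22 (SE), adjusted p = 1.59e-07). Kit, the stem cell factor receptor by which ST-HSC were sorted, was at 120.3, 125, 107, 75.5 and 109 FPKM in ST-HSC and 0.58, 2.97 and 1.19 FPKM in STHSC:MA9 (-5.48 ± 0.29 (SE), adjusted p = 1.42e-06). In both genes every leukaemia lay below every normal library by more than an order of magnitude. The regulators Tal1 (-5.05), Gfi1b (-4.30) and Gata2 (-4.24) fell too, as did Angpt1 (-5.02), the ligand of the Tek receptor, and Tek itself (-3.03).

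Other stem cell regulators changed less or did not pass. Runx1, which stem cells need to form, was at 47.6, 45.4, 41.4, 36.7 and 42.9 FPKM in ST-HSC and 13.5, 20.9 and 19.5 FPKM in STHSC:MA9 (-1.22 ± 0.17 (SE), adjusted p = 0.000503), and Erg changed by -1.19, or by -0.86 and so under the fold threshold without STHSC:MA9 1. Meis1, a cofactor of HOX proteins, was at 136, 134, 107, 72.5 and 113 FPKM in ST-HSC and 36.2, 81.5 and 62.2 FPKM in STHSC:MA9, a change of -0.94 that was under the fold threshold (adjusted p = 0.0249). Its groups overlapped, since ST-HSC 4 (72.5 FPKM) lay below STHSC:MA9 2 (81.5 FPKM), and it passed without ST-HSC 4 (-1.09, adjusted p = 0.009), without both ST-HSC 4 and 5 (-1.12, adjusted p = 0.0185) or without STHSC:MA9 2 (-1.19, adjusted p = 0.0144). Lmo2 (-0.15, adjusted p = 0.753), Fli1 (-0.21, adjusted p = 0.223) and Mecom (-0.85, adjusted p = 0.247), which encodes Evi1, did not pass the test. Mecom was at 91.3, 61.4, 50.2, 14.6 and 32.3 FPKM in ST-HSC and 11.8, 32.2 and 31.9 FPKM in STHSC:MA9, lowest in STHSC:MA9 1 and in ST-HSC 4, and passed without ST-HSC 4 (-1.22, adjusted p = 0.0444). These genes were singled out after their values were seen.

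HOX genes and known targets of the fusion were called about as often as other genes. HOX proteins are transcription factors of early progenitors, and MLL fusions are known for holding the later Hoxa genes active. Of 36 genes 23 were tested, 3 were higher and 3 lower, with a median of 0.55. Both shares lay near those of all genes tested, 11.2% higher and 12.2% lower. Hoxa10 was at 7.12, 7.12, 3.81, 2.46 and 2.66 FPKM in ST-HSC 1 to 5 and 10.1, 18.4 and 14.8 FPKM in STHSC:MA9 1 to 3 (1.51 ± 0.34 (SE), adjusted p = 0.00694). Eya1, a phosphatase and transcription cofactor, was at 11.04, 9.68, 5.22, 5.45 and 6.02 FPKM in ST-HSC and 27.9, 32.2 and 24.2 FPKM in STHSC:MA9 (1.82 ± 0.25 (SE), adjusted p = 0.000504), and Id2, an inhibitor of helix-loop-helix factors, was at 94.4, 10.3 and 11.7 FPKM in the leukaemias against 2.83 to 7.60 FPKM in ST-HSC. In all 3 the groups were apart, and STHSC:MA9 1 was far the highest for Id2 (2.23). Hoxa9 was at 16.8, 12.96, 11.9, 6.58 and 13.1 FPKM in ST-HSC and 14.5, 32.4 and 20.4 FPKM in STHSC:MA9, which did not pass the test (0.80 ± 0.31 (SE), adjusted p = 0.0658). STHSC:MA9 1 lay within the normal range, and Hoxa9 passed without it (1.06, adjusted p = 0.0359). Hoxa7 was just under the fold threshold (0.96, adjusted p = 0.00208) and passed without ST-HSC 3 (1.01), STHSC:MA9 1 (1.02) or STHSC:MA9 3 (1.06). The falls were Bahcc1 (-3.75), Tcf4 (-1.71), a factor of plasmacytoid dendritic cells, and Bcl2 (-1.70), an inhibitor of apoptosis. Without STHSC:MA9 1, 6 genes were higher, without STHSC:MA9 3, 5 were higher, and without ST-HSC 4, or without both 4 and 5, 5 were lower.

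Genes of the platelet lineage fell with those of stem cells, with whose list theirs shares some genes. Of 27 listed megakaryocyte and platelet genes 25 were tested, 19 were lower and 1 higher, with a median of -2.72 (18 lower and 1 higher without ST-HSC 4 and 5). Itga2b, the alpha chain of the platelet fibrinogen receptor (CD41), was at 101, 65.8, 74.1, 54.2 and 77.2 FPKM in ST-HSC and 0.09, 0.62 and 0.60 FPKM in STHSC:MA9 (-5.71 ± 0.22 (SE), adjusted p = 2.40e-07). Gp9 (-4.41), Gp5 (-2.81) and Gp1ba (-2.69), subunits of the receptor for von Willebrand factor, fell with it, and so did Vwf itself (-1.25), whose call was lost without ST-HSC 1 (-0.996, adjusted p = 0.021), STHSC:MA9 2 (-1.10, adjusted p = 0.0779) or STHSC:MA9 3 (-1.09, adjusted p = 0.0835). Cavin2 (Sdpr) and Treml1 were listed at 0 in all 3 leukaemias and at 9.27 to 38.2 and 6.93 to 15.8 FPKM in ST-HSC. The summed FPKM of the list was 2682, 1399, 1312, 1157 and 1276 in ST-HSC 1 to 5 and 559.9, 506 and 533 in STHSC:MA9, and ST-HSC 1 was the highest library for Pf4, Itga2b, Gp9 and Vwf. The 1 rise was Thbs1 (2.69), a matrix protein of platelet granules that monocytes also make.

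Most tested erythroid genes fell, and the globins varied too much among the normal libraries to pass. Of 31 listed genes 27 were tested, 17 were lower and 0 higher (median -3.37), and 14 were lower without ST-HSC 4 and 5. The regulators Gata1 (15.7, 6.77, 14.9, 14.4 and 16.2 FPKM in ST-HSC against 0.08, 0 and 0.10 FPKM in STHSC:MA9, -3.73 ± 0.28 (SE), adjusted p = 1.19e-05), Zfpm1 (FOG1, -4.89) and Klf1 (-3.05) fell in every leukaemia. The erythropoietin receptor Epor was at 7.44, 3.38, 6.03, 9.33 and 5.34 FPKM in ST-HSC and 0.24, 0.07 and 0.05 FPKM in STHSC:MA9 (-2.65 ± 0.29 (SE), adjusted p = 0.00012). The 4 globin genes tested varied by more than 100-fold among the normal libraries and did not pass the test. Hbb-b1 was at 109, 3769.6, 48.8, 24164 and 3781 FPKM in ST-HSC 1 to 5 and 122, 19.6 and 22.6 FPKM in STHSC:MA9 (-4.86 ± 1.85 (SE), adjusted p = 0.0626), and STHSC:MA9 1 lay above ST-HSC 1 and 3. It passed without ST-HSC 1 (-5.70, adjusted p = 0.0377) or without ST-HSC 3 (-5.98, adjusted p = 0.0194). The library with most globin, ST-HSC 4, was also the one with most late granulocyte RNA.

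Most tested genes of mast cells, basophils and eosinophils were lower in the leukaemia. Which cells gave this RNA in the ST-HSC libraries was not tested. Of 20 genes 15 were tested, 13 were lower and 0 higher (median -2.87). Without ST-HSC 4, or without both 4 and 5, 1 gene was higher, and without both 12 were lower. Prss34, a basophil protease, was at 73.3, 22.2, 64.2, 23.1 and 34.9 FPKM in ST-HSC and 0, 0 and 0.67 FPKM in STHSC:MA9 (-5.06 ± 0.42 (SE), adjusted p = 2.42e-05). Prg2, the eosinophil major basic protein, was at 145, 796, 377, 429 and 198 FPKM in ST-HSC and 6.81, 55.4 and 5.40 FPKM in STHSC:MA9 (-4.54 ± 0.74 (SE), adjusted p = 0.00128), with STHSC:MA9 2 the highest leukaemia. Ear1, an eosinophil ribonuclease, changed by -5.61, but 68.9% of its sequence windows are shared with other genes, so its value is uncertain. Cpa3, the carboxypeptidase of mast cells, changed by -2.95.

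Some lymphoid genes of early progenitors fell. Of 32 genes 26 were tested, 11 were lower and 2 higher (median -1.49), or 10 and 3 of 20 without ST-HSC 4 and 5. Bcl11a, needed for B cell development, was at 72.6, 60.6, 70.97, 48.6 and 79.9 FPKM in ST-HSC and 0.22, 1.22 and 0.89 FPKM in STHSC:MA9 (-5.27 ± 0.23 (SE), adjusted p = 5.37e-07). Dntt, the terminal transferase of lymphoid precursors, was at 10.01, 67.5, 54.8, 13.8 and 24.8 FPKM in ST-HSC and 0, 0.06 and 0.09 FPKM in STHSC:MA9 (-4.72 ± 0.56 (SE), adjusted p = 0.000218). Ctla2a (-5.45) and Ctla2b (-5.11), inhibitors of cathepsins, fell by a similar amount. The normal libraries differed in Dntt, being highest in ST-HSC 2 and 3, and were even for Bcl11a. Ikzf2, a transcription factor of the Ikaros family, rose (1.34), and its change was under the fold threshold without STHSC:MA9 2 (0.99, adjusted p = 0.0201). The count of rises was 1 without STHSC:MA9 1 and 0 without STHSC:MA9 2. Flt3, the receptor of lymphoid and myeloid progenitors, did not pass (-1.35, adjusted p = 0.104), at 15.02, 3.51 and 1.15 FPKM in STHSC:MA9 1 to 3 against 7.32 to 21.3 FPKM in ST-HSC, and passed without STHSC:MA9 1 (-2.14, adjusted p = 0.0107).

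**Figure D3:**
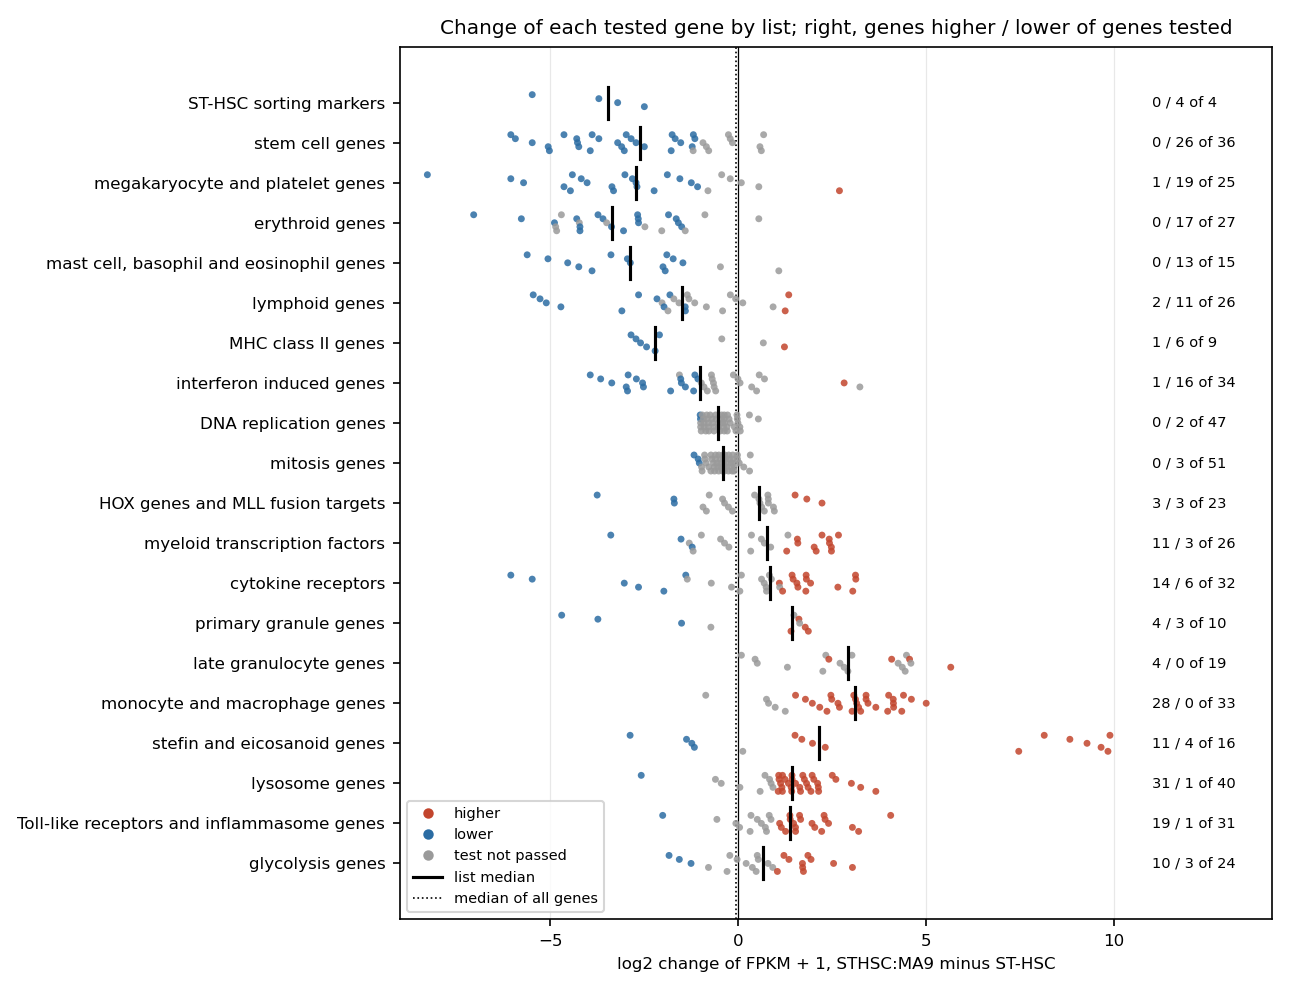
Log2 change (FPKM + 1) of every tested gene of 20 lists, STHSC:MA9 minus ST-HSC, with called rises in red, called falls in blue and the rest in grey, list medians as bars and the median of all 12720 genes (-0.06) as a dotted line. Stem cell, megakaryocyte, erythroid and mast cell lists lie to the left with medians of -2.61, -2.72, -3.37 and -2.87, and monocyte and lysosome lists to the right with medians of 3.12 and 1.43.

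Monocyte and macrophage genes mostly rose. Of 36 genes 33 were tested, 28 were higher and 0 lower (median 3.12), and 29 were higher without ST-HSC 4 and 5. Csf1r, the receptor of the macrophage growth factor, was at 1.94, 1.49, 6.58, 13.1 and 8.62 FPKM in ST-HSC 1 to 5 and 78.2, 28.99 and 57.5 FPKM in STHSC:MA9 1 to 3 (3.12 ± 0.58 (SE), adjusted p = 0.0025). Itgam (CD11b), an integrin chain of myeloid cells, was at 4.87, 4.69, 6.95, 101 and 30.9 FPKM in ST-HSC and 285, 249 and 273 FPKM in STHSC:MA9 (4.13 ± 0.87 (SE), adjusted p = 0.00486). CD11b is also an antigen by which mature cells were removed in the ST-HSC sort, while bulk leukaemia cells were sorted by GFP. The rise of Itgam therefore cannot be told apart from the sort. Clec4a2 (4.61), a lectin receptor, Lgals3 (4.40), galectin-3, and Adgre1 (Emr1, 4.35), the macrophage antigen F4/80, rose as far. Adgre1 was at 0.26, 0.98, 0.40, 4.02 and 2.72 FPKM in ST-HSC and 48.2, 52.8 and 38.4 FPKM in STHSC:MA9. ST-HSC 4 and 5 were the highest normal libraries for Csf1r, Itgam, Lgals3 and Adgre1, and all 3 leukaemias lay above them. STHSC:MA9 1 was the highest leukaemia for Csf1r, Fn1 and F13a1 (3.08, 354, 77.2 and 85.8 FPKM in STHSC:MA9 1 to 3 against 4.77 to 29.9 FPKM in ST-HSC).

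Genes of neutrophil granules moved in both directions. Primary granule proteins are made by promyelocytes, and secondary granule and other late granulocyte proteins by later cells. Of 10 genes on the primary granule list 4 were higher and 3 lower (median 1.44), and 5 were higher without ST-HSC 4 and 5. The list also holds genes whose proteins are not of primary granules, such as Plac8, Serpinb1a, Nkg7 and Igfbp4. Elane, neutrophil elastase, was at 99.04, 147, 229, 346 and 678 FPKM in ST-HSC and 326, 1251 and 1637 FPKM in STHSC:MA9 (1.86 ± 0.66 (SE), adjusted p = 0.0491), where STHSC:MA9 1 overlapped the normal range. Plac8 (1.78), Prtn3 (1.61), proteinase 3, and Serpinb1a (1.40), an elastase inhibitor, also rose. Without STHSC:MA9 2 or without STHSC:MA9 3 none of the 10 was higher, and without ST-HSC 1, 2 or 3 only 2 were. Elane lost its call without ST-HSC 1, 2, 3 or 4 and without STHSC:MA9 2 or 3 (adjusted p 0.0526 to 0.182), and Prtn3 without ST-HSC 1, 2 or 3 and without STHSC:MA9 2 or 3 (adjusted p 0.0546 to 0.128). Mpo, myeloperoxidase, went the other way, at 421, 777, 1392, 984 and 1722 FPKM in ST-HSC and 72.7, 29.3 and 163 FPKM in STHSC:MA9 (-3.73 ± 0.56 (SE), adjusted p = 0.000797), with no overlap. Nkg7 (139, 168, 210.3, 216 and 294 FPKM against 3.10, 15.4 and 5.83 FPKM, -4.70) and Igfbp4 (-1.51) fell too.

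The count of late granulocyte genes rested on ST-HSC 4 and 5. Of 20 genes 19 were tested, and 4 were higher and 0 lower (median 2.92) with all libraries. Without ST-HSC 4 and 5, 18 were higher (median 4.97), and without ST-HSC 4 alone 13 were. Leaving out ST-HSC 2, ST-HSC 3, STHSC:MA9 2 or STHSC:MA9 3 left 2, and leaving out STHSC:MA9 1 left 1. S100a8, a calcium-binding alarmin of neutrophils, was at 11.6, 41.3, 352, 12626 and 2201 FPKM in ST-HSC 1 to 5 and 4311, 5524 and 12442 FPKM in STHSC:MA9 1 to 3. Its change of 4.25 ± 1.94 (SE), adjusted p = 0.111, did not pass, with ST-HSC 4 above all leukaemias, and passed without ST-HSC 4 (5.55, adjusted p = 0.019) and without ST-HSC 4 and 5 (6.86, adjusted p = 0.00237). The rises with all libraries were Chi3l3, Mmp9 (4.56), Cd177 (4.08) and Padi4 (2.41). Padi4 alone kept its call without each library in turn. Padi4, a histone deiminase, was at 3.07, 4.01, 3.89, 18.9 and 12.7 FPKM in ST-HSC and 34.1, 41.5 and 45.1 FPKM in STHSC:MA9.

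**Figure D4:**
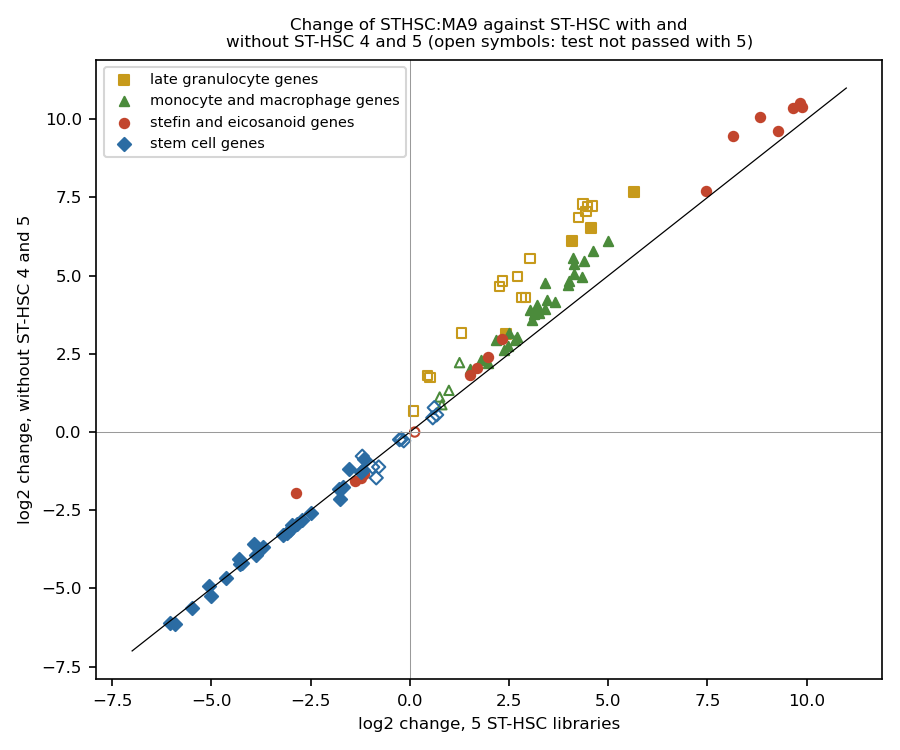
Log2 change of STHSC:MA9 against ST-HSC with all 5 ST-HSC libraries (x axis) and without ST-HSC 4 and 5 (y axis) for the tested genes of 4 lists, with open symbols for genes that did not pass with all 5. The late granulocyte genes lie furthest above the diagonal, with a median of 2.92 against 4.97, and stem cell genes lie along it, with medians of -2.61 and -2.70.

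Transcription factors of myeloid cells moved with these lists. Of 30 genes 26 were tested, 11 were higher and 3 lower (median 0.78). Spi1 (Sfpi1), which encodes PU.1, was at 17.98, 18.3, 28.4, 76.7 and 55.3 FPKM in ST-HSC and 159.8, 129.6 and 127 FPKM in STHSC:MA9 (2.02 ± 0.45 (SE), adjusted p = 0.00635). Its normal libraries divided, with ST-HSC 4 and 5 at the upper end. Id1 (2.67), Irf5 (2.48), Gfi1 (2.48), Cebpd (2.43) and Cebpe (2.42) had the largest rises. Gfi1, a repressor needed for neutrophils, was at 6.33, 49.03 and 34.2 FPKM in STHSC:MA9 1 to 3 against 0.54 to 5.87 FPKM in ST-HSC, so STHSC:MA9 1 was close to the normal range. Without STHSC:MA9 2 or without STHSC:MA9 3 neither Gfi1 (adjusted p 0.0613 to 0.0626) nor Cebpe (adjusted p 0.0599 to 0.0685) passed. Cebpa, needed for granulocyte-macrophage progenitors, was at 2.34, 4.07, 6.72, 4.51 and 6.61 FPKM in ST-HSC and 16.5, 11.7 and 10.6 FPKM in STHSC:MA9 (1.29 ± 0.29 (SE), adjusted p = 0.00683). Jun (32.7, 65.4, 17.5, 56.5 and 22.4 FPKM against 1.84, 0.76 and 6.74 FPKM, -3.39) and Myc (145, 125, 149.6, 152 and 189 FPKM against 22, 87.5 and 71.8 FPKM, -1.52) fell, besides Runx1. Without STHSC:MA9 1 Myc was under the fold threshold (-0.92, adjusted p = 0.0047).

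Cytokine receptor genes moved in both directions. Of 33 listed 32 were tested, 14 were higher and 6 lower (median 0.86), and 15 were higher without ST-HSC 4 and 5. Those that fell included Kit, Tek, Epor, Ghr (-1.98) and Il1r1 (-1.40). Those that rose included Il1r2 (3.13), the decoy receptor of interleukin 1, Csf1r and Il13ra1 (3.05). Csf2ra, the alpha chain of the GM-CSF receptor, was at 11.6, 9.37, 10.6, 31.3 and 20.7 FPKM in ST-HSC and 95.5, 105 and 98.8 FPKM in STHSC:MA9 (2.65 ± 0.35 (SE), adjusted p = 0.000385), and its beta chain Csf2rb changed by 1.81. Ifngr1, a chain of the interferon gamma receptor, was at 35.2, 47.2, 41.6, 48.1 and 52.8 FPKM in ST-HSC and 180.3, 162 and 134 FPKM in STHSC:MA9 (1.80 ± 0.17 (SE), adjusted p = 4.65e-05), with even groups. Csf3r, the G-CSF receptor, did not pass (0.09, adjusted p = 0.913), its highest value being 105 FPKM in ST-HSC 4.

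Adhesion and homing genes moved in both directions. Of 36 genes 35 were tested, 10 were higher and 8 lower (median 0.15), and 14 were higher without ST-HSC 4 and 5. Cxcr4, the receptor by which stem cells are held in marrow, was at 54.4, 73.2, 79.5, 108 and 66.8 FPKM in ST-HSC and 326, 219.8 and 231 FPKM in STHSC:MA9 (1.76 ± 0.22 (SE), adjusted p = 0.000321). Itgb7, an integrin chain, was at 2.89, 3.37, 3.72, 6.69 and 4.62 FPKM in ST-HSC and 39.2, 19.1 and 27.1 FPKM in STHSC:MA9 (2.47 ± 0.28 (SE), adjusted p = 0.000161). Itgam (a lineage antigen of the ST-HSC sort), Itgb2 (3.31), Ccr1 (3.18) and Vcam1 (2.67, mostly from STHSC:MA9 2 at 63.2 FPKM) rose most. Itga2b, Selp (-3.36), Esam (-2.85) and Emcn (-2.85) fell most. Itgb1 (-0.01, adjusted p = 0.975) and Itga4 (0.03, adjusted p = 0.934) did not pass.

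Many genes of antigen presentation were lower. MHC class II molecules present peptides to helper T cells, and 6 of 9 tested class II genes were lower and 1 higher (median -2.21), as they were without ST-HSC 4 and 5. Cd74, the invariant chain, was at 104, 130.1, 38.3, 205 and 67.9 FPKM in ST-HSC and 9.44, 17.1 and 10.98 FPKM in STHSC:MA9 (-2.85 ± 0.46 (SE), adjusted p = 0.00123). H2-Ob, a subunit of an inhibitor of class II loading, was at 14.6, 18.1, 18.8, 16.1 and 14.6 FPKM in ST-HSC and 1.34, 1.54 and 2.09 FPKM in STHSC:MA9 (-2.72 ± 0.17 (SE), adjusted p = 4.29e-06). H2-Aa changed by -2.60, and the 1 rise was H2-DMb1 (1.23). Cd74 varied 5-fold among normal libraries and H2-Ob was even. Of 19 genes of class I and peptide loading 7 were lower and 0 higher (median -0.40). H2-Q7, a class I molecule outside the classical set, was at 253, 156, 212, 163 and 173 FPKM in ST-HSC and 2.24, 3.43 and 2.16 FPKM in STHSC:MA9 (-5.73 ± 0.20 (SE), adjusted p = 1.31e-07), although 39.6% of its windows are shared. Nlrc5, the activator of class I transcription, was at 10.2 to 20.9 FPKM in ST-HSC and 1.63 to 2.06 FPKM in STHSC:MA9 (-2.62). H2-K1 changed by -1.61 and B2m, the shared light chain, by -1.36. H2-D1, a classical class I gene, did not pass (0.21, adjusted p = 0.316).

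Genes induced by interferon were lower in part. Of 34 tested 16 were lower and 1 higher (median -1.03), or 13 lower and 2 higher without ST-HSC 4 and 5. Without ST-HSC 4 alone or without STHSC:MA9 2, 2 were higher. Oasl2 was at 26.1, 37.8, 27.02, 49.7 and 35.7 FPKM in ST-HSC and 1.49, 1.19 and 3.00 FPKM in STHSC:MA9 (-3.66 ± 0.26 (SE), adjusted p = 1.04e-05), and Ifi44 at 9.87, 9.28, 11.04, 7.54 and 9.39 FPKM and 0, 0 and 0.02 FPKM (-3.36 ± 0.18 (SE), adjusted p = 1.83e-06). Ifitm1 (-3.94) was the largest fall. The rise was Ifi30 (2.82), a lysosomal thiol reductase. Irf7 (-0.66, adjusted p = 0.256) did not pass.

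Few cell division genes passed both thresholds. Of 47 DNA replication genes 2 were lower and 0 higher (median -0.53), and of 51 mitosis genes 3 were lower and 0 higher (median -0.41). Lig1, DNA ligase 1, was at 156, 196, 176, 149.8 and 156 FPKM in ST-HSC and 74, 81.96 and 91.6 FPKM in STHSC:MA9 (-1.004 ± 0.14 (SE), adjusted p = 0.000492). Mki67, the proliferation marker, was at 217, 211, 209, 187 and 217 FPKM in ST-HSC and 151, 147 and 138 FPKM in STHSC:MA9, a change of -0.52 (adjusted p = 0.00617) under the fold threshold with no overlap. In 22 of the 47 and 22 of the 51 genes the groups did not overlap, shares near the 40.0% of all genes tested. The counts turn on the fold threshold and the scaling. With mitochondrial genes left out of the scaling, 9 replication and 7 mitosis genes were lower, with median-ratio scaling 0 replication genes were, and leaving out 1 library gave 0 (ST-HSC 3 or STHSC:MA9 1) to 6 (ST-HSC 4) replication genes. For mitosis genes it gave 1 (ST-HSC 3) to 5 (STHSC:MA9 2), and 4 replication and 6 mitosis genes were lower without ST-HSC 4 and 5. Replication counts with ST-HSC 1, ST-HSC 2, ST-HSC 5, STHSC:MA9 2 or STHSC:MA9 3 left out were 4, 1, 1, 5 and 5.

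Regulators of entry into the cell cycle moved in both directions. Of 22 tested genes 4 were higher and 2 lower (median 0.31), with 7 higher without STHSC:MA9 1 and 6 without ST-HSC 4 and 5. The counts with all libraries were not far from the shares of all genes tested, 11.2% higher and 12.2% lower. Ccnd2, cyclin D2, was at 41.9, 36.8, 35.2, 27.97 and 31.2 FPKM in ST-HSC and 1.39, 5.39 and 1.83 FPKM in STHSC:MA9 (-3.33 ± 0.30 (SE), adjusted p = 4.08e-05), while Ccnd3, cyclin D3, changed by 1.18. Cdk4 was at 258, 250.3, 312, 231 and 329 FPKM in ST-HSC and 82.8, 100.1 and 92.3 FPKM in STHSC:MA9 (-1.57 ± 0.15 (SE), adjusted p = 6.71e-05). Of the kinase inhibitors, Cdkn1a (p21) was at 7.47, 37.5, 14, 45.7 and 21.6 FPKM in ST-HSC and 112, 132 and 188 FPKM in STHSC:MA9 (2.69 ± 0.50 (SE), adjusted p = 0.00258), Cdkn2c (p18) changed by 2.51 and Cdkn1c (p57) by 1.91. All leukaemias lay above all normal libraries in these 3 inhibitors. Cdk6 was at 173, 176, 199.9, 155 and 216 FPKM in ST-HSC and 121, 434 and 367 FPKM in STHSC:MA9 and did not pass (adjusted p = 0.254), STHSC:MA9 1 being the lowest of all libraries. Without STHSC:MA9 1 Cdk6 was higher (1.12, adjusted p = 0.00124).

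Lysosomal genes rose broadly. Of 42 genes 40 were tested, 31 were higher and 1 lower (median 1.43), and 32 were higher without ST-HSC 4 and 5. Lamp1, a membrane protein of lysosomes, was at 80.7, 70.1, 93.97, 93.2 and 89.6 FPKM in ST-HSC and 403, 323 and 414 FPKM in STHSC:MA9 (2.14 ± 0.15 (SE), adjusted p = 8.54e-06). Ctss (3.26) and Ctsh (3.01), cysteine cathepsins, the enzymes that stefins inhibit, and Cd68 (3.66) rose most, and Ctss was at 699, 185 and 319 FPKM in STHSC:MA9 1 to 3 against 20.99 to 91.8 FPKM in ST-HSC. Subunits of the proton pump rose by less, such as Atp6v1b2 (1.94) and Atp6v1e1 (2.13). The 1 fall was Ctse (-2.58), highest in ST-HSC 4 at 131 FPKM, and it was not called without STHSC:MA9 2 (-2.31, adjusted p = 0.0533) or without STHSC:MA9 3 (-2.33, adjusted p = 0.0556).

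Innate sensors rose as well. Of 31 tested Toll-like receptor and inflammasome genes 19 were higher and 1 lower (median 1.37), and 22 were higher without ST-HSC 4 and 5. Tlr13, a receptor for bacterial RNA, was at 0.48, 0.10, 0.10, 12.3 and 3.81 FPKM in ST-HSC and 99.1, 28.1 and 26.2 FPKM in STHSC:MA9 (4.06 ± 0.84 (SE), adjusted p = 0.00438). Tlr1 was at 0.83, 0.17, 0.95, 1.77 and 0.89 FPKM in ST-HSC and 16.4, 12.98 and 13.5 FPKM in STHSC:MA9 (3.04 ± 0.27 (SE), adjusted p = 4.09e-05), and the lipopolysaccharide co-receptor Cd14 changed by 3.20. Tlr4, its partner, did not pass (0.75, adjusted p = 0.121) except without ST-HSC 4 and 5 (1.12, adjusted p = 0.0304), and the fall was Il18 (-2.01). Of 25 genes of oxidant handling 11 were higher and 1 lower (median 0.68), with 12 higher without ST-HSC 4 and 5 and 3 lower without STHSC:MA9 1. Gsr, glutathione reductase, was at 17.7, 16.3, 19.7, 58.96 and 37.6 FPKM in ST-HSC and 432, 663 and 582 FPKM in STHSC:MA9 (4.33 ± 0.40 (SE), adjusted p = 4.57e-05). Gpx3, a secreted glutathione peroxidase, was at 2.01, 1.32, 2.66, 2.39 and 3.37 FPKM in ST-HSC and 86.1, 40.5 and 68.98 FPKM in STHSC:MA9 (4.27 ± 0.28 (SE), adjusted p = 5.46e-06), and the NADPH oxidase subunit Cybb changed by 4.12. Gpx3 was even and low across the normal libraries, whereas Cybb reached 162 FPKM in ST-HSC 4.

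The eicosanoid genes listed with the stefins did not move as 1 group. Of the 16 tested genes of that list 11 were higher and 4 lower. Alox5, which makes leukotrienes, was at 4.82, 4.00, 6.49, 30.3 and 10.2 FPKM in ST-HSC and 38.4, 43.3 and 59.2 FPKM in STHSC:MA9 (2.32 ± 0.53 (SE), adjusted p = 0.00691), with its partner Alox5ap at 1.98 and Lta4h, the next enzyme, at 1.69. Alox15 (-2.88), Ltc4s (-1.38), Tbxas1 (-1.23), thromboxane synthase, and Pla2g4a (-1.17) fell, of which 2 were called without STHSC:MA9 3. Ltc4s was not called without ST-HSC 2 or without STHSC:MA9 2 or 3 (adjusted p 0.0522 to 0.105), Tbxas1 not without STHSC:MA9 3 (-0.95, adjusted p = 0.0661) and Pla2g4a not without STHSC:MA9 1 (-0.83, adjusted p = 0.046). Ptgs1, cyclooxygenase 1, did not pass (0.12, adjusted p = 0.745).

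Less than the whole of glycolysis moved. Of 24 tested genes 10 were higher and 3 lower (median 0.66), and 11 were higher without ST-HSC 4 and 5. Hk3, a hexokinase of myeloid cells, was at 6.90, 9.82, 23.8, 36.1 and 21.2 FPKM in ST-HSC and 71.8, 210.4 and 199.6 FPKM in STHSC:MA9 (3.04 ± 0.53 (SE), adjusted p = 0.00178), and Slc16a3, a lactate exporter, changed by 2.54 and Pkm by 1.94. Hk1 (-1.25), Pfkm (-1.84) and the lactate carrier Slc16a1 (-1.57) fell, Hk1 by less than the fold threshold without STHSC:MA9 1 (-0.94, adjusted p = 0.0033). Of 29 cholesterol and fatty acid genes 5 were higher and 4 lower, with a median of 0.07 that turned to -0.02 without ST-HSC 4 and 5 and to -0.06 with mitochondrial genes left out of the scaling. With that scaling, or without STHSC:MA9 2, 3 were higher. The counts of this list were not far from the shares of all genes tested, 11.2% higher and 12.2% lower. Fdps, which makes farnesyl diphosphate, changed by 2.03 and Elovl6, an elongase, by -1.82.

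Genes of chromatin regulation gave calls in both directions. Of 37 genes of polycomb, DNA methylation and MLL complexes 3 were higher and 7 lower (median -0.27), and 5 were higher without STHSC:MA9 1. With median-ratio scaling 5 were lower. These counts were not far from the shares of all genes tested, 11.2% higher and 12.2% lower. Tet1, which oxidises methylcytosine, was at 30.9, 25.7, 31.9, 23.1 and 26.1 FPKM in ST-HSC and 0.12, 1.13 and 0.39 FPKM in STHSC:MA9 (-4.25 ± 0.22 (SE), adjusted p = 1.50e-06), whereas Tet2 was at 10.8, 9.51, 11.5, 8.31 and 12.5 FPKM and 29.9, 26.5 and 21.1 FPKM (1.22 ± 0.18 (SE), adjusted p = 0.000679). Dnmt3b, a methyltransferase, was at 35.8, 41.8, 34.99, 20.8 and 29.9 FPKM in ST-HSC and 4.10, 3.09 and 4.35 FPKM in STHSC:MA9 (-2.77 ± 0.22 (SE), adjusted p = 2.21e-05). Dnmt3l, its catalytically inactive relative, was listed at 0 in all 5 ST-HSC libraries and at 7.26, 23.7 and 16.8 FPKM in STHSC:MA9 1 to 3 (adjusted p = 2.87e-05). Cbx6 (-2.42), Phc1 (-2.37) and Cbx2 (-1.46), subunits of polycomb complexes, fell, Ezh2 stayed under the fold threshold (-0.71, adjusted p = 0.0154), and Kmt2a (Mll1), the mouse gene of the fusion's front part, was under it too (0.92, adjusted p = 0.0115) and passed without STHSC:MA9 1 (1.22, adjusted p = 0.00126).

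Of the regulators of apoptosis 5 of 12 were higher and 1 lower (median 0.83), and 3 were higher without STHSC:MA9 3. Bcl2a1b, an inhibitor of apoptosis, was at 1.55, 0.87, 0.20, 0.79 and 0.22 FPKM in ST-HSC and 8.83, 16.8 and 32.8 FPKM in STHSC:MA9 (3.45 ± 0.40 (SE), adjusted p = 0.000199), and Pmaip1 (Noxa), a promoter of it, was at 0.11, 0.16, 1.62, 1.31 and 0.71 FPKM and 12.4, 12.2 and 9.51 FPKM (2.88 ± 0.33 (SE), adjusted p = 0.000167). The fall was Bcl2. Immediate early genes, which respond to handling within minutes, gave 2 rises and 4 falls of 23 (median -0.93, or -0.52 over 22 without ST-HSC 4 and 5). Without ST-HSC 1, ST-HSC 5, STHSC:MA9 1 or STHSC:MA9 3, 1 was higher. Among all genes tested 11.2% were higher and 12.2% lower, not far from the immediate early list. Fos was at 40.4, 163, 14.4, 152 and 28.8 FPKM in ST-HSC 1 to 5 and 14.01, 8.43 and 74.7 FPKM in STHSC:MA9 1 to 3 and did not pass (adjusted p = 0.275), with ST-HSC 2 and 4 the highest libraries.

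Lists of other cell types were small. T and NK cell markers gave 2 falls of 4 tested, led by Lat (18.7, 17.3, 20.7, 15.8 and 14.4 FPKM in ST-HSC against 1.00, 0.47 and 0.98 FPKM in STHSC:MA9, -3.34), an adaptor that mast cells and platelets also use, and 9 of 13 were below the expression minimum. B and plasma cell markers gave 1 rise (Xbp1, 1.15) and 2 falls (Igj and Cd79a) of 7, and leaving out any 1 leukaemia left 0 of the falls, while leaving out ST-HSC 2, 3 or 5 left 1. Endothelial and stromal markers gave 4 falls of 8, among them Tie1 (-3.10) and Emcn, which stem cells also express, and 1 rise appeared without STHSC:MA9 1. Plasmacytoid dendritic markers gave 1 rise (Irf8, 1.59) and 2 falls (Ly6d and Tcf4) of 7, or 5 falls without ST-HSC 2. Of the 6 lineage antigens of the sort 4 were tested, 1 (Itgam) was higher and 1 lower. Without ST-HSC 4 and 5, 3 were tested, 2 were higher and 0 lower, and 0 were lower also without ST-HSC 2, without ST-HSC 5 and without any 1 leukaemia.

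The next question was whether leukaemias begun in other cells had changed from their own normal cells in the same way. Multipotent progenitors (MPP, 6 normal and 6 leukaemia samples; Lin- Sca-1+ c-Kit+ CD150- CD34+), common myeloid progenitors (CMP, 5 and 4; c-Kit+ Sca-1-) and granulocyte-macrophage progenitors (GMP, 5 and 6; c-Kit+ Sca-1-) had been transduced and transplanted in the same way, and each origin has its own normal samples. The change in the ST-HSC origin minus the mean change in the other 3 origins was tested over 12600 genes in a limma fit of these 40 samples, with p-values adjusted over these genes. It was called in 699 genes (5.55%), 229 higher (1.82%) and 470 lower (3.73%), where lower means that the gene fell further, or rose less, from ST-HSC to STHSC:MA9. With mitochondrial genes left out of the scaling the split was 132 higher and 661 lower. The count rested on single leukaemias, with 1171 genes without STHSC:MA9 1, 390 without STHSC:MA9 2 and 388 without STHSC:MA9 3. Without ST-HSC 4 and 5 it was 813 (325 higher, 488 lower).

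Most platelet genes were among those lower in the ST-HSC origin. Of 22 tested megakaryocyte and platelet genes 18 were lower and 0 higher (median difference -1.99, against 0.03 over all genes). Pf4 had the largest difference of all named genes, -4.35 ± 0.66 (SE), adjusted p = 3.28e-05. Its mean (± SD) was 467 ± 370.1 FPKM in ST-HSC, 2.88 ± 1.59 FPKM in MPP, 151 ± 32.3 FPKM in CMP and 18.7 ± 16.8 FPKM in GMP, while the means of all 4 leukaemias were below 1 FPKM, so the origins differed in their normal cells. Itgb3, the partner chain of Itga2b, was another case. It fell in the ST-HSC origin and rose in the MPP and GMP origins, with log2 changes of -1.89, 1.42, 0.81 and 1.06 in the ST-HSC, MPP, CMP and GMP origins (-2.98 ± 0.47 (SE), adjusted p = 4.83e-05). Its mean (± SD) was 17.7 ± 5.85 FPKM in ST-HSC and 4.00 ± 1.23 FPKM in STHSC:MA9, but 11.6 ± 7.82, 16.9 ± 7.27 and 11.3 ± 4.60 FPKM in MPP:MA9, CMP:MA9 and GMP:MA9. Of 35 stem cell genes 16 were lower in this sense and 0 higher (median -1.25), and of 22 lymphoid genes 6 lower.

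Some immune genes were lower in the same sense. Cd74 was at log2 changes of -2.85, -0.35, 0.07 and 3.02 in the ST-HSC, MPP, CMP and GMP origins (-3.76 ± 1.12 (SE), adjusted p = 0.0226), and its mean (± SD) was 12.5 ± 4.05 FPKM in STHSC:MA9 against 95.1 ± 38.1, 127 ± 114 and 227 ± 181 FPKM in the other leukaemias. H2-Q7 fell in all 4, by 5.73, 3.89, 3.40 and 1.09 on the log2 scale (-2.94 ± 0.54 (SE), adjusted p = 0.000391). Cd209a, a lectin of dendritic cells, rose in the other 3 origins, with log2 changes of 0.41, 2.55, 3.36 and 4.39 in the same order (-3.02 ± 0.77 (SE), adjusted p = 0.00854). Its mean (± SD) was 2.91 ± 2.53 FPKM in STHSC:MA9 and 9.46 ± 10.6, 23.1 ± 21.1 and 39.3 ± 36.5 FPKM in MPP:MA9, CMP:MA9 and GMP:MA9. Ear1 differed by -2.98 ± 0.89 (SE), adjusted p = 0.0237. Cd74 did not pass without STHSC:MA9 2 (-4.00, adjusted p = 0.056), without STHSC:MA9 3 (-3.70, adjusted p = 0.0801) or without ST-HSC 4 and 5 (-3.54, adjusted p = 0.0525). Ear1 did not pass with a pseudocount of 0.1 (adjusted p = 0.149), without ST-HSC 4 and 5 (-2.63, adjusted p = 0.0616) or without ST-HSC 4 (-2.54, adjusted p = 0.053), STHSC:MA9 2 (-2.94, adjusted p = 0.0817) or STHSC:MA9 3 (-2.78, adjusted p = 0.0985). Of 9 class II genes 2 were lower in this sense and of 19 class I genes 4 were lower and 1 higher.

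In the other direction stood the primary granule list, with 6 of its 10 genes higher and 0 lower (median difference 2.22). Against the MPP origin alone 2 of the 10 were higher and 0 lower (median difference 1.65). Ctsg, cathepsin G, was at log2 changes of 1.63, -0.80, -0.29 and -3.30 in the ST-HSC, MPP, CMP and GMP origins (3.10 ± 0.71 (SE), adjusted p = 0.00356). Its mean (± SD) was 147 ± 88.1, 273 ± 134, 313 ± 163 and 1773 ± 183 FPKM in the normal cells in this order. In the leukaemias it was 508 ± 350, 186 ± 114, 232 ± 41.9 and 204 ± 109 FPKM. Mpo fell in all 4, by 3.73, 5.71, 5.78 and 7.95 on the log2 scale, and least in this one (2.75 ± 0.71 (SE), adjusted p = 0.00969). The means (± SD) of Mpo in the normal cells rose in the same order as these falls. They were 1059 ± 510.2 FPKM in ST-HSC, 2241 ± 893 in MPP, 2601 ± 1327 in CMP and 12761 ± 1465 in GMP. Those of the leukaemias were 88.2 ± 67.96, 45.8 ± 26.9, 44.1 ± 19.9 and 83.4 ± 90.4 FPKM. Clec4b2, a lectin receptor, differed by 3.22 ± 0.81 (SE), adjusted p = 0.00729. It was at 11.7, 37.4 and 52.7 FPKM in STHSC:MA9 1 to 3, with a mean (± SD) of 33.9 ± 20.7 FPKM against 16.5 ± 17.1, 3.44 ± 2.01 and 4.74 ± 7.81 FPKM in MPP:MA9, CMP:MA9 and GMP:MA9. Kcnip3, a calcium-binding protein, was at 6.18, 28.7 and 29.7 FPKM in STHSC:MA9 1 to 3 (2.75 ± 0.42 (SE), adjusted p = 3.66e-05), Hdc, histidine decarboxylase, differed by 2.76 ± 0.83 (SE), adjusted p = 0.0253, and Mgl2, a macrophage lectin, by 2.68 ± 0.77 (SE), adjusted p = 0.0191. Without STHSC:MA9 3 the differences of Clec4b2 (2.79, adjusted p = 0.0632), Mpo (2.15, adjusted p = 0.0985), Hdc (2.41, adjusted p = 0.127) and Mgl2 (2.03, adjusted p = 0.153) did not pass. The same held for Mgl2 without STHSC:MA9 2 (2.28, adjusted p = 0.113) and for Hdc without ST-HSC 1 (2.46, adjusted p = 0.0561) or ST-HSC 2 (2.51, adjusted p = 0.0542). In Clec4b2, Ctsg, Kcnip3 and Mgl2, STHSC:MA9 1 was the lowest leukaemia of its group.

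**Figure D5:**
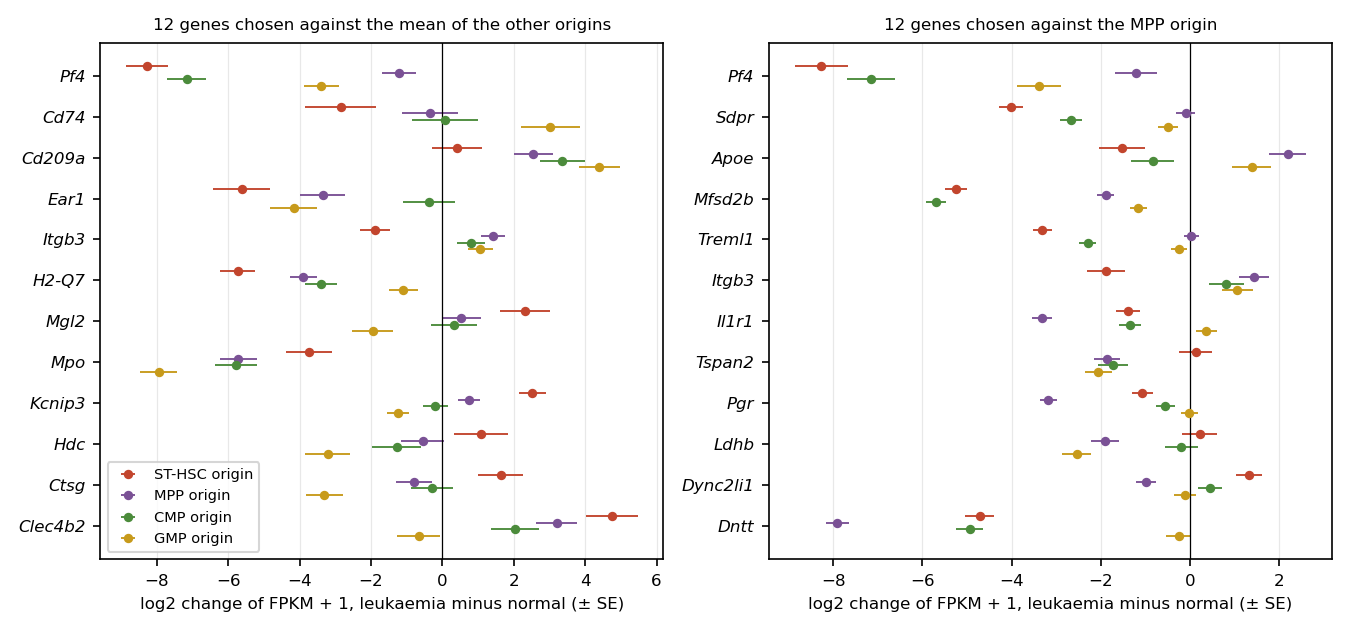
Log2 change (FPKM + 1) from normal cell to leukaemia, with its standard error, for each origin in the fit of 40 samples, for 12 genes chosen by the difference from the mean of the other origins (left) and 12 by the difference from the MPP origin (right). Itgb3 is at -1.89 in the ST-HSC origin and at 1.42, 0.81 and 1.06 in the MPP, CMP and GMP origins, and Pf4 at -8.27 against -1.21 in the MPP origin.

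The MPP is the normal cell nearest to the ST-HSC in the sort, differing in CD150. Against the MPP origin 268 of 12600 genes (2.13%) differed, 100 higher (0.794%) and 168 lower (1.33%). With mitochondrial genes left out of the scaling 64 were higher and 203 lower. The count was 591 without STHSC:MA9 1, 136 without STHSC:MA9 2 and 142 without STHSC:MA9 3, and 219 (91 higher, 128 lower) without ST-HSC 4 and 5. This comparison and the one before share the ST-HSC and STHSC:MA9 samples. Of 22 megakaryocyte and platelet genes 16 were lower in the ST-HSC origin and 0 higher (median difference -2.13, against 0.04 over all genes), and of 35 stem cell genes 3 were lower. Pf4 differed by -7.06 ± 0.76 (SE), adjusted p = 7.01e-08. Cavin2 (Sdpr) differed by -3.92 ± 0.34 (SE), adjusted p = 4.58e-10, Treml1 by -3.34 ± 0.28 (SE), adjusted p = 3.16e-10, and Mfsd2b, a lipid exporter of platelets and red cells, by -3.36 ± 0.31 (SE), adjusted p = 1.71e-09. The mean (± SD) of Sdpr was 17.4 ± 11.8 FPKM in ST-HSC and 0.0883 ± 0.17 FPKM in MPP, and that of Mfsd2b 50.1 ± 7.12 and 4.01 ± 0.97 FPKM. The means of both leukaemias were below 1 FPKM for these 3 genes and Treml1, so here too the normal cells differed.

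For Apoe and Itgb3 the leukaemias differed too. Apoe, a lipid carrier, was at 65.9, 54.7, 97.9, 134 and 124 FPKM in ST-HSC and 53.5, 27.04 and 19.4 FPKM in STHSC:MA9 1 to 3, and its mean (± SD) was 31.5 ± 4.65 FPKM in MPP and 189 ± 172 FPKM in MPP:MA9, so it fell in one origin and rose in the other (-3.72 ± 0.67 (SE), adjusted p = 0.000732). Itgb3 differed by -3.31 ± 0.54 (SE), adjusted p = 0.000166. Among the genes higher in this sense, Dntt fell in both origins, from a mean (± SD) of 34.2 ± 25.6 FPKM in ST-HSC and from 269 ± 29.4 FPKM in MPP (3.19 ± 0.42 (SE), adjusted p = 5.20e-06). Pgr, the progesterone receptor (2.11 ± 0.29 (SE), adjusted p = 1.27e-05), and Il1r1, the interleukin 1 receptor (1.92 ± 0.35 (SE), adjusted p = 0.000853), followed the same pattern with more in MPP, at 8.49 ± 3.06 and 19.5 ± 2.74 FPKM, than in ST-HSC, at 1.19 ± 0.65 and 5.35 ± 1.64 FPKM. Dync2li1, a dynein subunit of cilia, moved in opposite directions in the ST-HSC and MPP origins (1.32 and -0.99, 2.32 ± 0.37 (SE), adjusted p = 0.000129). Ldhb, a lactate dehydrogenase subunit, differed by 2.11 ± 0.50 (SE), adjusted p = 0.0132, and Tspan2, a tetraspanin, by 1.99 ± 0.47 (SE), adjusted p = 0.0126. Both fell in the MPP origin (-1.90 and -1.86) and did not pass in the ST-HSC origin (0.211 and 0.125). The mean (± SD) of Ldhb was 35.1 ± 6.97 FPKM in ST-HSC and 40.5 ± 7.12 FPKM in STHSC:MA9. In MPP it was 59.2 ± 12.6 FPKM and in MPP:MA9 16.99 ± 7.34 FPKM. For Tspan2 the means in this order were 6.45 ± 2.14, 8.16 ± 5.23, 15.9 ± 4.08 and 4.05 ± 2.64 FPKM. Neither passed without STHSC:MA9 2 (Ldhb 2.09, adjusted p = 0.0503, Tspan2 1.78, adjusted p = 0.0753) or without STHSC:MA9 3 (Ldhb 2.00, adjusted p = 0.0594, Tspan2 1.59, adjusted p = 0.108), and Ldhb did not pass without ST-HSC 4 and 5 (1.91, adjusted p = 0.0547).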

How the data were processed

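RNA-seq libraries had been made from amplified cDNA of sorted cells. The authors aligned reads to mm9 and estimated expression with RSEM, and deposited 1 table of FPKM per gene and sample. The authors' own tests used counts, which were not used here. Of the 68 sample columns, 49 matched a sample by name and the other 19 were not used. FPKM corrects for gene length and mapped fragments and keeps no read totals, so no counting interval can be given, and a fall of mitochondrial RNA raises all other values. Coordinates follow NCBIM37 with the annotation the gene identifiers come from, and 33068 of 38253 identifiers had a symbol.

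Tests were run with limma (version 3.58.1, R 4.3.3) on log2(FPKM + 1) for genes whose mean reached 1 FPKM, with Benjamini-Hochberg adjustment over all genes tested. Calls needed an adjusted p below 0.05 and a log2 change above 1. The ST-HSC and STHSC:MA9 comparison used its 8 samples, and the comparisons between origins used 40. Tested on simulated data for STHSC:MA9 minus ST-HSC over 12720 genes, the test found 176 of 200 genes changed by 2 on the log2 scale with 3 false calls, 194 of 200 changed by 3 with 3 false calls, and 0 where none was changed. The simulated noise was normal and independent between genes, and the changed genes had a mean log2 level above 2. These rates therefore do not cover deviations shared across a library or changes of weakly expressed genes. Named genes were the 12 largest rises and 12 largest falls among called genes with groups that did not overlap, leaving out predicted genes (1 of the falls and a few other list members are not reported here), and the 6 largest differences each way between origins. List members named besides these, and all genes named with values that did not pass, were chosen after their values were seen. The samples and gene lists were chosen with earlier results of these data known. Same-numbered samples did not deviate together (correlations of -0.007, 0.072 and 0.015), so the numbers do not pair them. A shared sequence window is a run of 31 bases of a transcript that another gene also holds. Such windows also made up 31.1% of Chi3l3, 27.7% of Serpina3g, 21.9% of Car1 and 20.4% of Mgl2, so their values are less certain. Promoters were read from RefSeq. The alternatives were another pseudocount, no filter, median-ratio scaling, scaling without mitochondrial genes, GC and length correction, no fold threshold, a block for the replicate number, a fit shared with the other origins, genes with shared sequence left out, and libraries left out in turn or together.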

Additional observations from a re-analysis of the deposited data

Results flagged for a closer look

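In 12 of 209 values of the 5 ST-HSC libraries that were examined, 1 library stood apart from the other 4 by Dixon's criterion at the 95% level. Chance marks about 1 in 20 groups. Of the 12, 6 were ST-HSC 4. Its summed FPKM was 938100, its lineage antigens summed to 418 FPKM, its late granulocyte genes to 44320 FPKM and its erythroid genes to 44340 FPKM, all the highest of the group. It was the lowest of the group for Mki67 (187.1 FPKM) and Nlrc5 (10.15 FPKM). ST-HSC 1 stood apart upwards for the platelet lineage, with a megakaryocyte sum of 2682 FPKM, Gp5 at 10.04 FPKM and Treml1 at 15.75 FPKM, and for the endothelial and stromal sum of 144.9 FPKM. Gata1 was low in ST-HSC 2 (6.77 FPKM), and H2-DMb1 stood apart in ST-HSC 5 (9.32 FPKM).

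The step from normal cell to leukaemia differed between the ST-HSC origin and the mean of the MPP, CMP and GMP origins, by a test of the difference itself, for Pf4 (-4.35), Cd74 (-3.76), Cd209a (-3.02), Ear1 (-2.98), Itgb3 (-2.98) and H2-Q7 (-2.94), which were lower, and for Clec4b2 (3.22), Ctsg (3.10), Hdc (2.76), Kcnip3 (2.75), Mpo (2.75) and Mgl2 (2.68), which were higher. Against the MPP origin alone it differed for Pf4 (-7.06), Sdpr (-3.92), Apoe (-3.72), Mfsd2b (-3.36), Treml1 (-3.34) and Itgb3 (-3.31), which were lower, and for Dntt (3.19), Dync2li1 (2.32), Ldhb (2.11), Pgr (2.11), Tspan2 (1.99) and Il1r1 (1.92), which were higher. These are the 6 largest differences in each direction, on the log2(FPKM + 1) scale. No cause was tested.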

How the results depend on the processing

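Without the fold threshold 5006 genes changed from ST-HSC to STHSC:MA9 (2389 higher, 2617 lower), 1726 differed from the mean of the other origins (899 higher, 827 lower) and 406 from the MPP origin (174 higher). The count for STHSC:MA9 against ST-HSC stayed within 1.5 times the reported one under the other alternatives, and leaving out 1 library gave 2721 to 3214 genes (1272 to 1542 higher, 1410 to 1672 lower). Leaving out 1 library gave 388 to 1171 genes against the mean of the other origins (107 to 490 higher, 279 to 681 lower) and 136 to 591 against the MPP origin (42 to 258 higher, 93 to 333 lower). The high ends came from leaving out STHSC:MA9 1 and the low ends of the totals from leaving out STHSC:MA9 3 and 2. Leaving mitochondrial genes out of the scaling moved the median of all genes by -0.12 for STHSC:MA9 against ST-HSC, to -0.18, and the split to 1260 higher and 1801 lower. Of the 33 list medians 1, that of cholesterol and fatty acid genes, changed sign with this scaling. The same scaling moved the medians between origins by -0.20 and -0.12, with 132 genes higher and 661 lower against the mean of the other origins and 64 and 203 against the MPP origin. With a pseudocount of 0.1, 59 genes were higher than in the MPP origin. The cause of these moves was not tested.

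The difference in mitochondrial share was -13.1 percentage points without ST-HSC 4 and 5 (exact permutation test, p = 0.1, the smallest those samples allow) and -12.3 to -10.2 with 1 library left out (highest p = 0.0952). With the replicate number as a block 3141 genes were called (1555 higher, 1586 lower), but as ST-HSC 4 and 5 have no partner this amounts to leaving them out. Same-numbered samples did not correlate best, so the numbers pair nothing and the block is no paired result. Of 194 genes named in the text 158 kept their side of the threshold and 0 reversed. This covers the alternatives other than no fold threshold, which was not applied to single genes. Of the differences between origins 6 of 12 kept theirs against the mean of the other origins and 10 of 12 against the MPP origin, with 0 reversed. Leaving out genes with shared sequence tested 154 of the 194 genes. Neither that setting nor the shared fit was applied to the differences. Fusion transcript and read depth were not measured in the table, and 3 leukaemias limit all comparisons.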
